A study of Mus musculus with 12 samples.

Results

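Extracellular ATP, ADP, UTP, UDP and adenosine act on macrophages through a small set of surface proteins, and 8 genes of this system were followed by symbol in mouse bone-marrow-derived macrophages. They are the ATP-gated channels P2rx4 and P2rx7, the nucleotide receptors P2ry2 and P2ry6, the ectoenzymes Entpd1 and Nt5e, and the adenosine receptors Adora2a and Adora2b. All 8 were found, among 24346 genes of the table. The macrophages came from wild-type mouse marrow grown for 7 days with M-CSF and were either left untreated (Control), given LPS, given the ER stressor tunicamycin (Tm), or given both (Tm_LPS), with 3 libraries in each of the 4 groups. Tunicamycin was used at 5 ug/ml and LPS at 1 ng/ml for 3 h, alone and in the combination. For the combination, tunicamycin came 3 h ahead of LPS. Strain, sex and age of the mice, the exposure time in the cells given tunicamycin alone, and whether replicates are separate animals or cultures are not given in the sources used here, so p-values measure the spread between these libraries, which may be technical. Wherever Tm_LPS is set against Tm, an LPS effect cannot be told apart from a difference in tunicamycin exposure time. Tunicamycin inhibits the first step of N-glycan assembly, so that proteins misfold in the ER, and LPS is the bacterial ligand of TLR4.

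ATP that leaves a stressed or dying cell opens P2X channels, and sustained opening of P2X7 is a classical trigger of NLRP3 inflammasome assembly and IL-1 beta release in primed macrophages. P2Y receptors are G-protein-coupled, and of those followed P2Y2 responds to ATP and UTP and P2Y6 to UDP. CD39, the product of Entpd1, degrades ATP and ADP to AMP, and CD73, the product of Nt5e, turns AMP into adenosine. Adenosine then acts on the receptors encoded by Adora2a and Adora2b, which raise cAMP and are known to restrain inflammatory cytokine output of macrophages.

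Expression was read as FPKM, fragments scaled by transcript length and by library, so that levels can be set side by side between genes. Differences were tested on log2(FPKM + 1) with limma over the 10311 genes with at least 1 FPKM in at least 3 libraries, and the threshold was an adjusted p (Benjamini-Hochberg) under 0.05. On this scale the change of a gene of low level is understated. Read depth is unknown. Summed FPKM was 561108 to 685010 per library, and 9507 to 9741 genes reached 1 FPKM. Hspa5, the ER chaperone BiP, was at 765 to 912 FPKM in Control libraries and at 7233 to 10986 FPKM in Tm libraries, and Tnf, a cytokine induced by LPS, was at 1.76 to 3.61 FPKM in Control and 692 to 813 FPKM in LPS libraries. Summed FPKM of 7 macrophage markers was 14212 to 22980, while the summed markers of T and NK cells, B cells, dendritic cells and mast cells were each at or under 2.14 FPKM in every library. Lyz2 (9193 to 18966 FPKM) and Cd68 (2691 to 4505 FPKM) held most of the macrophage sum, and Mertk was at 1.78 to 11.7 FPKM. Single macrophage markers did move: Cd68 and Fcgr1 fell with tunicamycin alone (log2 -0.58 and -1.15) and were lower in Tm_LPS than in LPS (-0.41 and -1.10), Adgre1 rose with tunicamycin alone (0.38) and Mertk fell 3.02-fold with LPS, and their part in the results was not tested. Control replicate 2 and Tm_LPS replicate 3 lay apart from their groups on principal components 3 and 4, which held 6.85% and 4.02% of the variance, and results that change without them are given with both values. On component 4 the Tm_LPS group was spread as a whole, at -20.5, -6.56 and 23.3 for replicates 1, 2 and 3. Of these, replicates 1 and 2 were left out only singly.

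Promoter sequence is shown for a receptor that rose with LPS (P2ry2), one that rose more steeply (Adora2b) and one that rose with tunicamycin (P2rx7). These are the 250 bases upstream of a RefSeq start on GRCm38.p6, written 5′ to 3′ on the gene's strand, with matches to the motifs described after them in capitals. The P2ry2 stretch is chr7:101012054-101012303 on the minus strand, the Adora2b stretch chr11:62248734-62248983 on the plus strand, and the P2rx7 stretch chr5:122643677-122643926 on the plus strand. The 3′ end of the P2rx7 stretch overlaps the first exon of the GENCODE gene, and the P2ry2 stretch lies wholly inside the GENCODE span of its gene, since the RefSeq start is downstream of the GENCODE one.
P2ry2: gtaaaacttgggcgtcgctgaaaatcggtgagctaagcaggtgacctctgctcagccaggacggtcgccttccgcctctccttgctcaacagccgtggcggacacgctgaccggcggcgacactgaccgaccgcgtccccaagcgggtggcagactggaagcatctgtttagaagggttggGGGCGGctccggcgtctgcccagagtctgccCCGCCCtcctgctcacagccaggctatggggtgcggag
Adora2b: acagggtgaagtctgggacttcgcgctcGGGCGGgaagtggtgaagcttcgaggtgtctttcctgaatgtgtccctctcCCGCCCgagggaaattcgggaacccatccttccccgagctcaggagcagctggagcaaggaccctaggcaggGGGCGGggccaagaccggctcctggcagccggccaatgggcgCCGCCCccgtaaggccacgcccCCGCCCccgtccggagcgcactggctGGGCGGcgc
P2rx7: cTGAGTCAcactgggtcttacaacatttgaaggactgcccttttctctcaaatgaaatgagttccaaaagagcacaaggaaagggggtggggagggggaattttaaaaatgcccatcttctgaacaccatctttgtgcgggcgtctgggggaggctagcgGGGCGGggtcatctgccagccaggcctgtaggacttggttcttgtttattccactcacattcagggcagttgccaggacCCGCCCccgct

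Windows of 250 bases before and 50 bases after a start were found for 6 of the 8 genes, 9 windows in all, and 11 motifs were searched on both strands in these and in all 32851 windows of the RefSeq table. The GC box GGGCGG, bound by Sp1 and KLF factors, occurred 6 times before the Adora2b start and 4 times in the first P2ry2 window, of which 2 lie in the stretch shown; it is common, with 35.7% of all windows holding it. The first P2rx7 window holds an AP-1 motif, TGANTCA, at base -249 (7.81% of all windows) and GC boxes at bases -90 and -11. The second P2rx7 window holds a PU.1 motif, GAGGAAGT, at base 4 after the start (3.2% of all windows). The E-box CACGTG lies at base 38 of the first P2ry2 window, past the stretch shown (7.15% of all windows). The NF-kB motif (4.51% of all windows), the ATF4/CHOP composite motif TGATGNAA (3.97%), the CRE TGACGTCA (1.79%), the UPRE TGACGTGG (0.676%), TATAAA (13.6%), the GAS TTCNNNGAA (8.3%) and the ETS motif CCGGAAG (8.86%) had no match in the 9 windows. Overlapping GC boxes, present in the Nt5e window, were counted separately. A match is a run of letters only, and nothing is read from its presence or absence here.

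Before the single genes, the counts are these. With LPS alone 3 of the 7 tested members rose and 0 fell, beside 10.5% of all tested genes that rose and 7.86% that fell. With tunicamycin alone 2 rose and 4 fell, against 17.9% and 16.6% of all genes. In Tm_LPS relative to LPS 1 was higher and 4 were lower, against 13.8% and 15.1% of all genes. In Tm_LPS relative to Tm 4 were higher and 1 was lower, against 8.69% and 7% of all genes. The median log2 difference of the 7 was 0.22, -0.74, -0.64 and 0.80 in these 4 comparisons, and the median of all tested genes lay between -0.01 and 0.03. Adora2a reached 1 FPKM in LPS and Tm_LPS libraries alone and so entered the test only through the groups in which it is high, and Nt5e never reached 1 FPKM and was not tested. Quantile normalization lowered the share of higher calls among all genes called from 57.2% to 48% with LPS alone. In Tm_LPS relative to Tm it lowered that share from 55.4% to 44.9%. The Tm and LPS effects use the same Control libraries, and the comparisons with Tm_LPS share theirs, so the counts are not independent of each other.

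**Figure D1:**
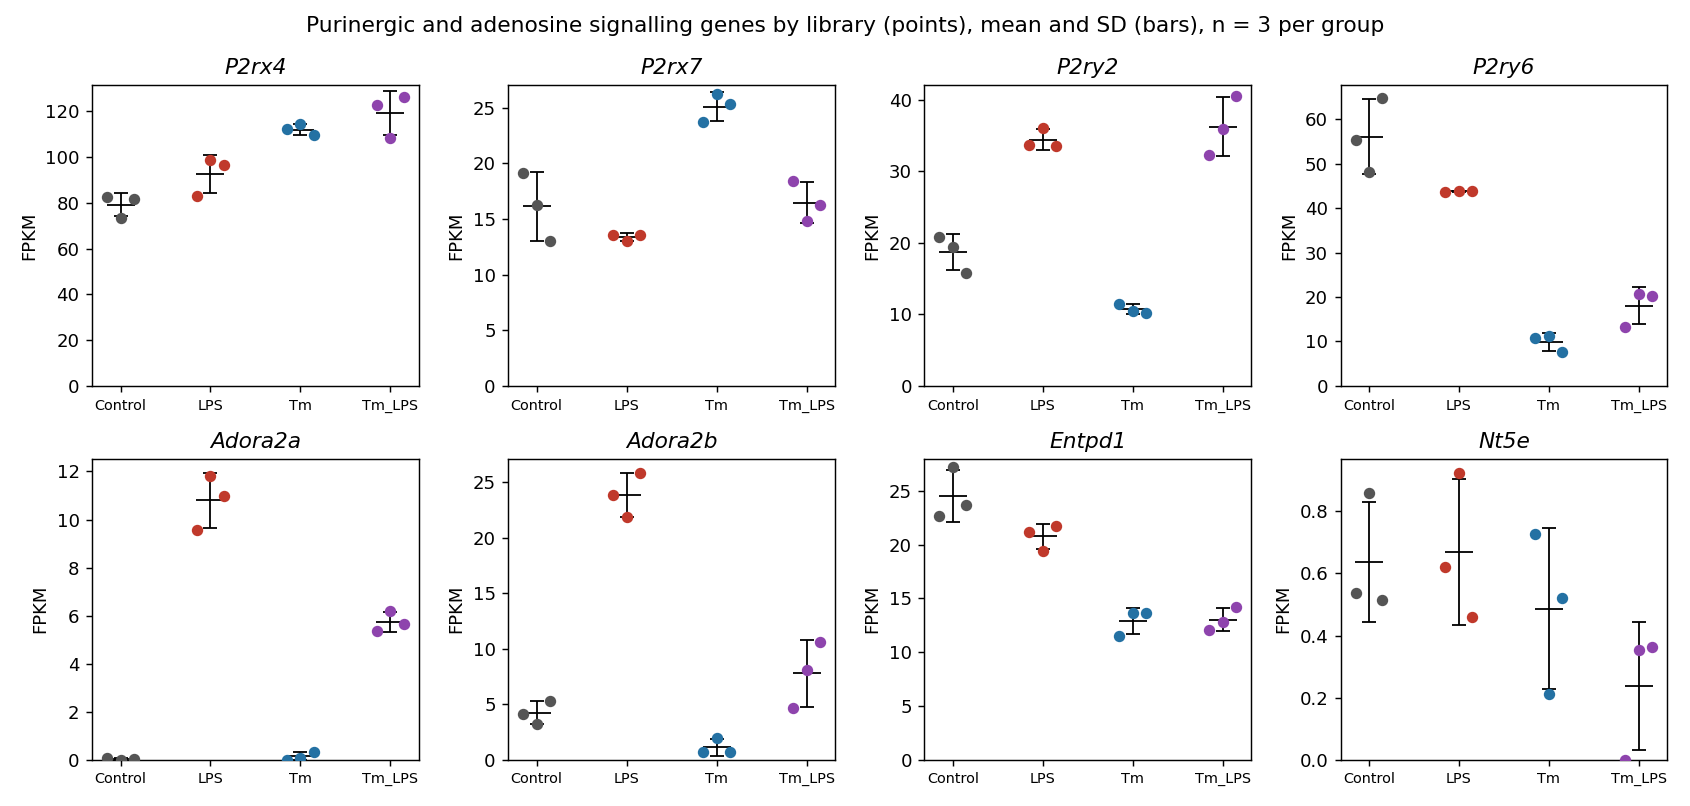
FPKM of each of the 8 genes in all 12 libraries (points, 3 per group; horizontal lines, group means), on a vertical axis of its own for each gene. Adora2a and Adora2b were highest in the 3 LPS libraries, P2ry6 was lowest in the Tm libraries, and Nt5e stayed under 1 FPKM throughout.

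Of the ATP-gated channels, P2rx4 was the most abundant of the 8 genes in every group, rose with tunicamycin alone and was higher in Tm_LPS than in LPS. P2X4 is a cation channel opened by ATP and held largely in lysosomes of macrophages. Its gene lies on chromosome 5 at 122707544 to 122729738 of GRCm38, plus strand, 16111 bases downstream of P2rx7. P2rx4 stood at 82.7, 73.4 and 81.5 FPKM in Control, 83.0, 98.6 and 96.3 in LPS, 112, 114.2 and 109.4 in Tm and 122.7, 108.1 and 126.3 in Tm_LPS. The 3 Tm libraries all lay above the 6 Control and LPS libraries, and they overlapped only with Tm_LPS. The rise with tunicamycin alone was 0.49 ± 0.10 on the log2 scale (SE; 1.41-fold; limma adjusted p = 0.00102). Tm_LPS was above LPS by 0.36 ± 0.10 (1.28-fold; adjusted p = 0.0121), and the adjusted p was 0.0648 without LPS replicate 1 (0.00411 to 0.0648 over the alternatives). LPS gave 0.22 ± 0.10 with groups apart but did not pass (adjusted p = 0.149). LPS on top of tunicamycin gave 0.09 ± 0.10 (adjusted p = 0.627).

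P2rx7 was raised by tunicamycin alone and stood lower when LPS followed tunicamycin. P2X7 is the low-affinity ATP channel whose opening lets potassium leave the cell. Its gene lies on chromosome 5 at 122643911 to 122691432, plus strand, and it overlaps the microRNA gene Mir8115. P2rx7 was at 19.1, 16.2 and 13.005 FPKM in Control, 13.6, 12.99 and 13.6 in LPS, 23.7, 26.2 and 25.4 in Tm and 18.4, 14.8 and 16.3 in Tm_LPS. The 3 Tm libraries were the highest of the 12, Control and LPS overlapped, and Tm_LPS lay within the Control range. Tm exceeded Control by 0.62 ± 0.15 on the log2 scale (1.54-fold; limma adjusted p = 0.00433). Tm_LPS was below Tm by 1.497-fold (log2 -0.58 ± 0.15; adjusted p = 0.0142), which became 0.0619 without Tm replicate 2 (0.00935 to 0.0619 over the alternatives). Neither LPS against Control (-0.24 ± 0.15; adjusted p = 0.339) nor Tm_LPS against LPS (0.27 ± 0.15; adjusted p = 0.19, groups apart) passed.

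The 2 channels thus shared the rise with tunicamycin alone. The FPKM ratio of P2rx4 to P2rx7 within a library was 4.32 to 6.27 in Control, 6.10 to 7.59 in LPS, 4.32 to 4.73 in Tm and 6.67 to 7.77 in Tm_LPS. All 3 Tm libraries had a lower ratio than all 6 libraries with LPS. P2rx4 supplied 64.1 to 65.5% of the summed FPKM of the 8 genes in Tm, against 38.9 to 40.3% in Control.

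Of the P2Y receptors, P2ry2 rose with LPS and fell with tunicamycin alone, and its Tm_LPS and LPS libraries overlapped. P2Y2 senses ATP and UTP and is known in phagocytes for detecting nucleotides from dying cells. The gene lies on chromosome 7 at 100996568 to 101012866, minus strand, 21918 bases from P2ry6. P2ry2 was at 20.8, 19.5 and 15.9 FPKM in Control, 33.7, 36.1 and 33.5 in LPS, 11.5, 10.5 and 10.3 in Tm and 32.3, 35.9 and 40.6 in Tm_LPS. Tm libraries were the lowest and did not overlap with any other group, while LPS and Tm_LPS overlapped. LPS raised P2ry2 by 0.85 ± 0.14 on the log2 scale (1.81-fold; limma adjusted p = 0.000203), and tunicamycin alone lowered it 1.67-fold (-0.74 ± 0.14; adjusted p = 0.000519). LPS after tunicamycin raised it 3.16-fold over Tm (1.66 ± 0.14; adjusted p = 1.39e-07). The difference of Tm_LPS from LPS was 0.07 ± 0.14 with a 95% interval of -0.22 to 0.36 (adjusted p = 0.757), and it was -0.015 without Tm_LPS replicate 3.

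P2ry6 showed the largest fall with tunicamycin alone among the 7 tested members. P2Y6 is the UDP receptor, linked in microglia and macrophages to phagocytosis and chemokine release. Its gene lies on chromosome 7 at 100937630 to 100974649, minus strand, and it overlaps the gene model Gm44545 on the other strand; the sources used here do not state whether counting used strand, so reads of the pair cannot be told apart. P2ry6 was at 55.3, 48.2 and 64.9 FPKM in Control, 43.6, 43.9 and 43.9 in LPS, 10.8, 11.3 and 7.57 in Tm and 13.2, 20.6 and 20.3 in Tm_LPS. No pair of groups overlapped, in the order Control, LPS, Tm_LPS, Tm. Tunicamycin alone lowered P2ry6 5.27-fold (log2 -2.40 ± 0.18; limma adjusted p = 3.72e-08), and in bulk libraries fewer cells of a type and less RNA per cell cannot be told apart. Tm_LPS was 2.39-fold below LPS (-1.26 ± 0.18; adjusted p = 6.21e-05) and 1.74-fold above Tm (0.80 ± 0.18; adjusted p = 0.00526). LPS alone gave -0.34 ± 0.18, which did not pass (adjusted p = 0.223).

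The balance of these neighbouring genes moved in steps. P2ry6 exceeded P2ry2 by 2.48 to 4.09 times within Control libraries and by 1.22 to 1.31 times within LPS libraries. The ratio was 0.738 to 1.08 in Tm and 0.410 to 0.575 in Tm_LPS, so that all 3 libraries with both agents held more P2ry2 than P2ry6 transcript. The 4 groups did not overlap in this ratio. The summed FPKM of the pair was 67.7 to 80.7 in Control and 77.3 to 79.9 in LPS, and 17.8 to 22.3 in Tm and 45.5 to 60.9 in Tm_LPS.

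**Figure D2:**
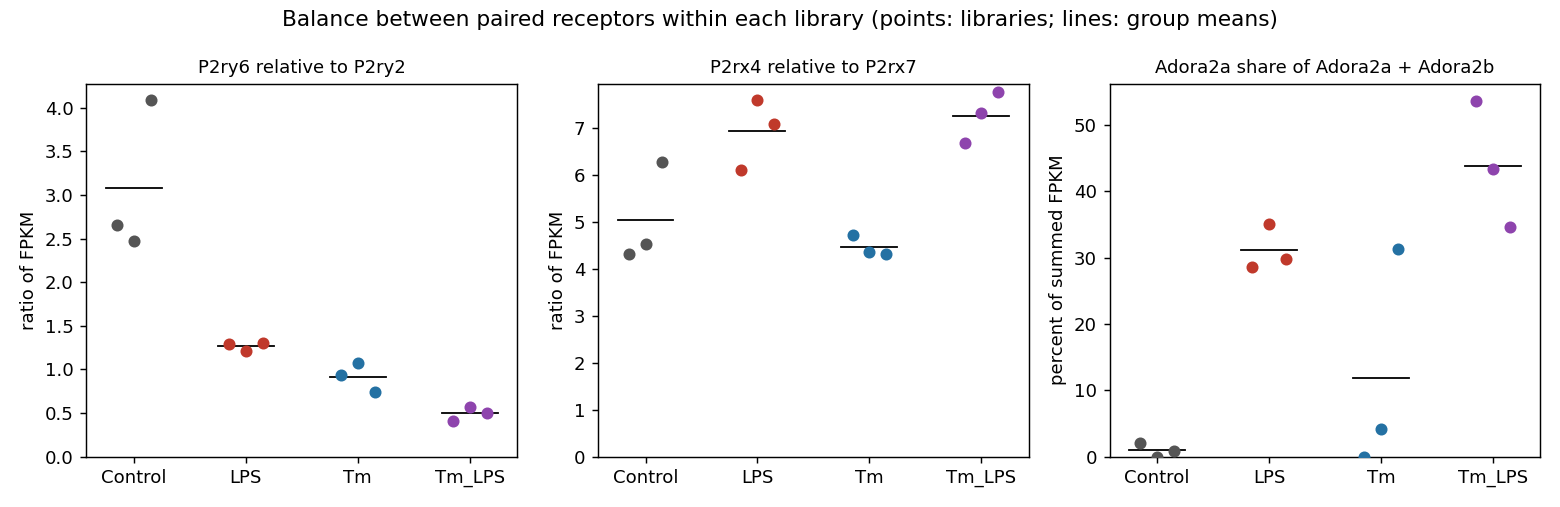
FPKM ratio of P2ry6 to P2ry2, FPKM ratio of P2rx4 to P2rx7, and Adora2a as a percentage of Adora2a plus Adora2b, in each library (points; horizontal lines, group means). The P2ry6 to P2ry2 ratio falls from a mean of 3.08 in Control to 0.495 in Tm_LPS with no overlap of groups, and the Adora2a share is spread widely in Tm, where both genes are near 0.

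Of the ectoenzymes, Entpd1 fell with tunicamycin whether or not LPS followed, and did not pass with LPS alone. CD39, its product, takes ATP and ADP down to AMP at the cell surface. The gene lies on chromosome 19 at 40612366 to 40741602, plus strand, and its span also contains short noncoding and pseudogene models. Entpd1 was at 22.7, 27.2 and 23.7 FPKM in Control, 21.2, 19.4 and 21.7 in LPS, 11.5, 13.6 and 13.6 in Tm and 12.1, 12.8 and 14.2 in Tm_LPS. The 6 libraries with tunicamycin all lay below the 6 without it. The fall was 1.83-fold with tunicamycin alone (log2 -0.87 ± 0.14; limma adjusted p = 0.000136) and Tm_LPS was 1.55-fold below LPS (-0.64 ± 0.14; adjusted p = 0.00249). LPS alone gave -0.23 ± 0.14 (adjusted p = 0.311; groups apart). Tm_LPS differed from Tm by 0.01 ± 0.14 (95% interval -0.28 to 0.30; adjusted p = 0.979), and by -0.050 without Tm_LPS replicate 3 and -0.065 without Tm replicate 1.

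Nt5e, which encodes CD73, the enzyme that makes adenosine from AMP, was barely detected. It lies on chromosome 9 at 88327197 to 88372092, plus strand. Nt5e was at 0.536, 0.861 and 0.516 FPKM in Control, 0.622, 0.924 and 0.460 in LPS, 0.727, 0.212 and 0.520 in Tm and 0, 0.353 and 0.362 in Tm_LPS. No library reached 1 FPKM, and Control, LPS and Tm overlapped. Without the filter on low values Tm_LPS differed from LPS by -0.44 on the log2 scale, which did not pass (limma adjusted p = 0.117). Fibroblasts also carry CD73, and the summed FPKM of 5 stromal markers was 7.75 to 10.1 in Control and 7.91 to 13.4 in LPS. It was 19.3 to 34.8 in Tm and 15.9 to 41.0 in Tm_LPS. Of the 4 tested, 3 rose with tunicamycin alone, beside 17.9% of all tested genes. In Tm_LPS 2 were higher than in LPS, beside 13.8% of all tested genes. Col3a1 and Dcn are in both counts. Col3a1 reached 1 FPKM in Tm and Tm_LPS libraries alone and so entered the test only through the groups in which it is high. Dcn was at 0.0685 to 0.937 FPKM in Control. None of the 5 was at 0 in all libraries, and their part in the values of Nt5e or of the other genes that differ with tunicamycin was not tested.

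Of the adenosine receptors, Adora2a went from near absence to a clear level with LPS, and to a lower one when tunicamycin came first. Its receptor couples to Gs, raises cAMP and binds adenosine with high affinity. Its gene lies on chromosome 10 at 75316877 to 75334784, plus strand. Adora2a was at 0.0887, 0 and 0.0454 FPKM in Control, 9.58, 11.8 and 11.0 in LPS, 0, 0.0853 and 0.325 in Tm and 5.35, 6.18 and 5.64 in Tm_LPS. Control and Tm overlapped near 0, and the 3 Tm_LPS libraries all lay below the 3 LPS libraries. LPS gave a log2 difference of 3.49 ± 0.21 (limma adjusted p = 1.31e-09), and LPS after tunicamycin 2.57 ± 0.21 over Tm (adjusted p = 1.12e-07). With a pseudocount of 0.1 these were 6.28 and 4.87, since the baseline is near 0. Tm_LPS was 1.75-fold below LPS (-0.81 ± 0.21; adjusted p = 0.00779), a call lost at a pseudocount of 0.1 (-0.90; adjusted p = 0.209; 0.0012 to 0.209 over the alternatives). Tunicamycin alone gave 0.11 ± 0.21 (adjusted p = 0.721), and -0.072 with quantile normalization and -0.0032 without Tm replicate 3.

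Adora2b, present at a low level in Control, rose with LPS and fell with tunicamycin in both settings. Its receptor also raises cAMP and has a lower affinity for adenosine. The gene lies on chromosome 11 at 62248984 to 62266453, plus strand. Adora2b was at 4.15, 3.24 and 5.31 FPKM in Control, 23.8, 21.8 and 25.8 in LPS, 0.662, 2.00 and 0.714 in Tm and 4.63, 8.04 and 10.6 in Tm_LPS. LPS libraries were the highest and Tm libraries the lowest, each apart from all others, while Control and Tm_LPS overlapped. LPS raised Adora2b 4.80-fold (log2 2.26 ± 0.28; limma adjusted p = 1.16e-05) and tunicamycin alone lowered it 2.53-fold (-1.34 ± 0.28; adjusted p = 0.00137). Tm_LPS was 2.95-fold below LPS (-1.56 ± 0.28; adjusted p = 0.000521) and 4.11-fold above Tm (2.04 ± 0.28; adjusted p = 5.77e-05). With a pseudocount of 0.1 the difference of Tm from Control was -1.96 and that of Tm_LPS from Tm 2.77.

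Over both adenosine receptor genes, the summed FPKM was 3.24 to 5.35 in Control, 33.4 to 36.8 in LPS, 0.662 to 2.08 in Tm and 9.98 to 16.3 in Tm_LPS, with no overlap between groups. Adora2a made up 0 to 2.09% of the sum in Control and 28.7 to 35.1% in LPS, and 34.7 to 53.6% in Tm_LPS. In Tm its share ran from 0 to 31.3%, where both genes are near 0. Neutrophil markers moved in some of the same comparisons: the summed FPKM of the 4 of 5 listed markers in the table was 82.3 to 121.5 in Control, 183.5 to 307 in LPS, 12.3 to 23.6 in Tm and 15.9 to 30.0 in Tm_LPS, and none of the 4 was at 0 in all libraries. Of these 4, 2 rose with LPS, 3 fell with tunicamycin alone and 3 were lower in Tm_LPS than in LPS. The shares of all tested genes were 10.5%, 16.6% and 15.1% in the same order. The part of these 4 markers in the adenosine receptor values was not tested.

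**Figure D3:**
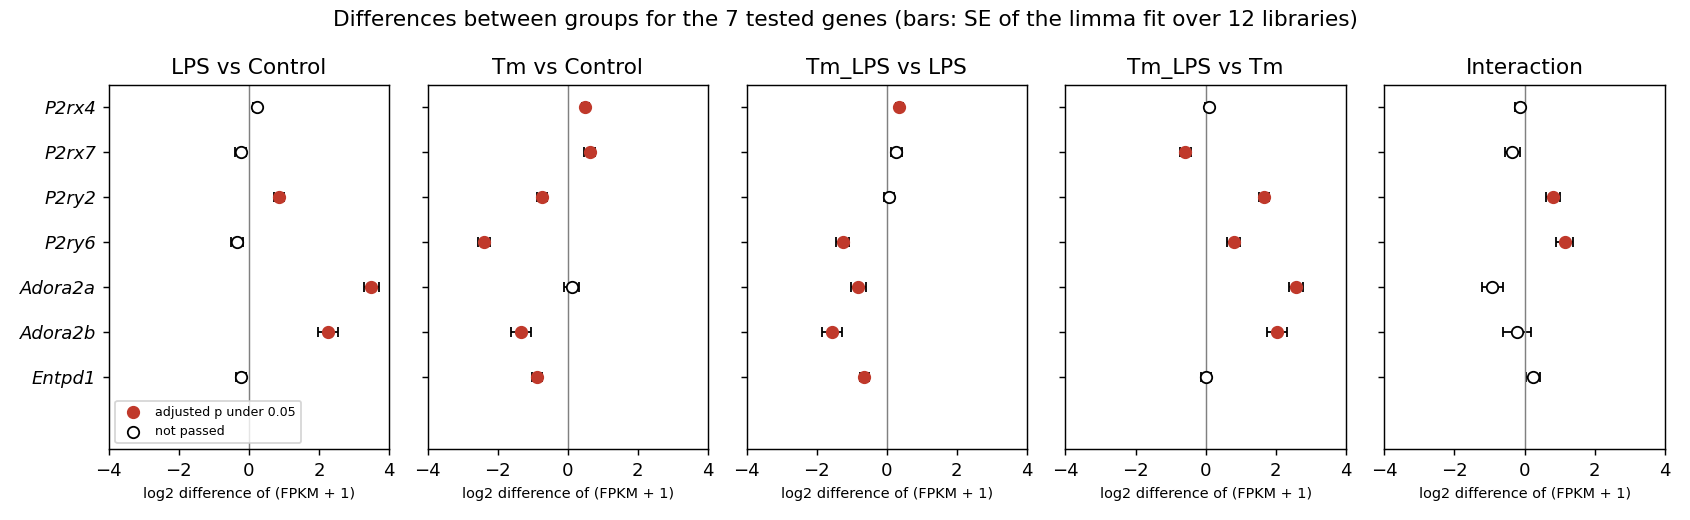
Log2 differences of FPKM + 1 for the 7 tested genes in 4 group comparisons and in the interaction (points; bars, SE of the limma fit over 12 libraries; filled points, adjusted p under 0.05). Tunicamycin alone moved 6 of the 7, 2 higher and 4 lower, beside 17.9% and 16.6% of all tested genes. P2ry6 lay farthest to the left there at -2.40, and LPS moved Adora2a and Adora2b farthest to the right.

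Whether the LPS effect differed with tunicamycin was tested as an interaction, the LPS difference after tunicamycin less that without it. Since the tunicamycin exposure of the Tm libraries is unknown, a difference in exposure time cannot be told apart from a changed LPS effect here. P2ry2 and P2ry6 passed, both with a more positive LPS effect after tunicamycin; 1.41% of all tested genes passed in this direction and 1.96% in the other. The median interaction was -0.14 over the 7 members and -0.03 over all tested genes. For P2ry6 the LPS difference was -0.34 without and 0.80 with tunicamycin, an interaction of 1.14 ± 0.25 (limma adjusted p = 0.0173). It was lost when no filter on low values was used (adjusted p = 0.068; 0.00252 to 0.068 over the alternatives). For P2ry2 the differences were 0.85 and 1.66, an interaction of 0.80 ± 0.19 (adjusted p = 0.0284). The value lay near the threshold: with 1 library fewer it stayed between 0.72 and 0.84 where the call was lost, which was without Control replicate 1 (0.73) or 2 (0.77), LPS replicate 1 (0.79), 2 (0.84) or 3 (0.79), Tm replicate 2 (0.79) or 3 (0.77), or Tm_LPS replicate 3 (0.72), with adjusted p from 0.0138 to 0.129 over the alternatives. Without both libraries that lay apart it was 0.69 (adjusted p = 0.129). The other 5 did not pass, at -0.14 ± 0.14 for P2rx4 (adjusted p = 0.726), -0.35 ± 0.21 for P2rx7 (0.494), -0.92 ± 0.29 for Adora2a (0.108; 0.0242 without the trend term), -0.22 ± 0.39 for Adora2b (0.857) and 0.24 ± 0.20 for Entpd1 (0.64). The Adora2b value changed sign at a pseudocount of 0.1 (0.28) and without Tm replicate 2 (0.053) or Tm_LPS replicate 1 (0.065).

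Around these 8, a list of 62 further genes of nucleotide and adenosine signalling was read, of which 37 were tested. With LPS 6 rose and 6 fell, beside 10.5% and 7.86% of all genes. With tunicamycin alone 5 rose and 8 fell, beside 17.9% and 16.6%. In Tm_LPS 3 were higher and 7 lower than in LPS, beside 13.8% and 15.1%, and 4 were higher and 3 lower than in Tm, beside 8.69% and 7%. For the interaction 2 were positive and 2 negative, beside 1.41% and 1.96%. The share of the 37 that passed was thus near that of all genes with tunicamycin alone, in Tm_LPS relative to LPS and in Tm_LPS relative to Tm. The medians were 0.00, -0.15, -0.20, 0.08 and -0.08 on the log2 scale. None of the other 5 P2X genes and neither Adora1 nor Adora3 could be tested, since all were low; Adora1 was listed at 0 in every library. In these libraries P2rx4 and P2rx7 were thus the P2X genes, and Adora2a and Adora2b the adenosine receptor genes, that reached the level needed for a test.

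Among the other P2Y receptors, 4 of 6 were tested. P2ry1, an ADP receptor, was at 7.85, 5.31 and 5.22 FPKM in Control and at or below 1.71 FPKM in each of the 9 treated libraries. It fell 3.39-fold with LPS (log2 -1.76 ± 0.23; limma adjusted p = 2.4e-05) and 3.32-fold with tunicamycin alone (-1.73 ± 0.23; adjusted p = 2.52e-05), with an interaction of 1.80 ± 0.33 (adjusted p = 0.0038). P2ry13, another ADP receptor, fell from a mean of 4.21 ± 0.844 FPKM (SD, n = 3) to 1.44 ± 0.948 FPKM with LPS (-1.15 ± 0.28; adjusted p = 0.00716). It was higher in Tm_LPS than in LPS by 0.92 (adjusted p = 0.0202), a call lost without LPS replicate 1 (0.87) or 3 (0.68), without Tm_LPS replicate 3 (0.72), without both libraries that lay apart (0.72) or without a filter. P2ry14, the UDP-glucose receptor, was lower in Tm_LPS than in Tm (log2 -1.14 ± 0.30; adjusted p = 0.0164), a call lost without Tm replicate 2 (-1.08) or 3 (-1.01), without Tm_LPS replicate 1 (-0.99), without both libraries that lay apart (-1.10) or without a filter.

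In the ectoenzyme class 5 of 15 were tested and none passed with LPS. Entpd6, a nucleoside diphosphatase of the Golgi that can be secreted, fell with tunicamycin alone (log2 -0.90 ± 0.24; limma adjusted p = 0.00794) and was lower in Tm_LPS than in LPS (-0.98 ± 0.24; adjusted p = 0.00578), with means of 7.97, 5.94, 3.87 and 2.50 FPKM in Control, LPS, Tm and Tm_LPS. Entpd7, an intracellular nucleotidase, was lower in Tm_LPS than in LPS by a log2 difference of -0.68 (adjusted p = 0.0273), a call lost without LPS replicate 1 (-0.58) or 3 (-0.68), without Tm_LPS replicate 1 (-0.56) or in a fit of the 6 libraries alone.

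All 7 genes of adenosine uptake and removal were tested. Slc29a3, an equilibrative nucleoside transporter of lysosomes, was at a mean of 20.0 ± 0.77 FPKM in Control and 20.5 ± 1.82 in Tm, and at 11.2 ± 2.35 in LPS and 8.06 ± 1.94 in Tm_LPS (SD, n = 3). It fell 1.74-fold with LPS (limma adjusted p = 0.00464) and 2.40-fold with LPS after tunicamycin (adjusted p = 0.000106). Slc29a1, the main plasma membrane transporter of this kind, was 1.33-fold lower in Tm_LPS than in LPS (adjusted p = 0.0069). Pnp, which cleaves inosine, fell with tunicamycin alone (log2 -0.47; adjusted p = 0.0125; -0.36 and lost without Control replicate 2, alone or with the other library that lay apart), was lower in Tm_LPS than in LPS (-0.44; adjusted p = 0.02; lost without LPS replicate 3 at -0.35 and Tm_LPS replicate 2 at -0.39) and was higher in Tm_LPS than in Tm (0.57; adjusted p = 0.00758). The concentrative transporter Slc28a2 rose with LPS (0.84; adjusted p = 0.0111) and with tunicamycin alone (0.68; adjusted p = 0.0233), calls lost without Control replicate 3 (0.73 and 0.57), without LPS replicate 2 (0.76) for the first and without Tm replicate 2 (0.63) or 3 (0.65) for the second. Slc29a2 fell with LPS (-0.996; adjusted p = 0.0237), which was lost without Control replicate 1 (-1.03), 2 (-0.99) or 3 (-0.97), LPS replicate 1 (-1.02) or 3 (-0.77), without both libraries that lay apart (-0.985; adjusted p = 0.0513), without a filter or at a pseudocount of 0.1 (-1.59), and with tunicamycin alone (-1.01; adjusted p = 0.0132), which was lost without Tm replicate 2 (-0.73).

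Of the genes for ATP release 4 of 5 were tested, and Panx1 passed with LPS and with LPS after tunicamycin. Pannexin 1 is a large-pore channel opened by caspase cleavage. Panx1 was at 44.7, 46.6 and 35.5 FPKM in Control, 25.04, 26.7 and 25.5 in LPS, 44.7, 42.0 and 40.7 in Tm and 31.8, 29.2 and 25.3 in Tm_LPS. The 6 libraries with LPS all lay below the 6 without it, with a 1.61-fold fall for LPS alone (limma adjusted p = 0.000869) and a 1.46-fold fall after tunicamycin (adjusted p = 0.00687). Gja1, the connexin 43 gene, rose with LPS (log2 1.30 ± 0.39; adjusted p = 0.0269), a call lost without Control replicate 2 (0.78), LPS replicate 2 (1.32) or 3 (1.19), without both libraries that lay apart (0.78; adjusted p = 0.14), without a filter (adjusted p = 0.103) or without the trend term (adjusted p = 0.05). Lrrc8a, the core subunit of volume-regulated anion channels, rose with tunicamycin alone (0.75 ± 0.25; adjusted p = 0.0264), a call lost without Control replicate 1 (0.62) or 3 (0.68) or Tm replicate 1 (0.69), 2 (0.80) or 3 (0.76), or without a filter.

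The 6 genes listed for the inflammasome output of P2X7, Nlrp3, Pycard, Casp1, Gsdmd, Il1b and Il18, were all tested. Of these, 2 were higher and 0 lower with LPS, beside 10.5% and 7.86% of all genes. Tunicamycin alone gave 2 higher and 1 lower, beside 17.9% and 16.6%. Relative to LPS, Tm_LPS had 2 higher and 2 lower, beside 13.8% and 15.1%. Il18 passed in none of these comparisons. The 2 higher with LPS, Nlrp3 and Il1b, reached 1 FPKM in LPS and Tm_LPS libraries alone and so entered the test through the groups in which they are high, as Adora2a did. Nlrp3, the sensor, was at 8.30 to 13.3 FPKM in LPS and 12.7 to 15.5 in Tm_LPS, and at or below 0.866 in the 6 libraries without LPS. Il1b, which encodes the secreted cytokine, was at 815, 784 and 820 FPKM in LPS and at 347, 271 and 253 in Tm_LPS, and below 1 FPKM in every library without LPS. Tm_LPS was 2.79-fold below LPS for Il1b (limma adjusted p = 1.63e-06), with an interaction of -1.27 ± 0.21 (adjusted p = 0.00153) that was lost at a pseudocount of 0.1 (-0.90; adjusted p = 0.266). The adaptor gene Pycard fell with tunicamycin alone (1.60-fold; adjusted p = 0.00168) and was lower in Tm_LPS than in LPS (1.63-fold; adjusted p = 0.00172). Casp1 and Gsdmd, for the protease and the pore protein, rose with tunicamycin alone, by 0.59 ± 0.16 (adjusted p = 0.00775) and 0.60 ± 0.17 (adjusted p = 0.0114) on the log2 scale, the latter at 0.42 and lost without Control replicate 2, alone or with the other library that lay apart. Both were also higher in Tm_LPS than in LPS, Gsdmd 1.73-fold (adjusted p = 0.00224) and Casp1 1.47-fold (adjusted p = 0.0133).

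Of the cAMP genes downstream of these adenosine receptors, 11 of 16 were tested. Pde4b, a cAMP-degrading phosphodiesterase, was at 0.779, 0 and 1.40 FPKM in Control, 46.7, 51.2 and 52.3 in LPS, 2.36, 2.06 and 2.65 in Tm and 37.9, 43.5 and 43.4 in Tm_LPS. It rose with LPS (log2 4.98 ± 0.24; limma adjusted p = 1.01e-10) and with tunicamycin alone (1.05 ± 0.24; adjusted p = 0.00299). Prkaca, a catalytic subunit of protein kinase A, fell with LPS (1.59-fold; adjusted p = 0.00692) and with tunicamycin alone (2.01-fold; adjusted p = 0.00015), from a mean of 25.1 ± 1.56 FPKM in Control to 15.4 ± 0.702 and 12.2 ± 2.91 (SD, n = 3). With both agents it was at 16.8 ± 0.822 FPKM, an interaction of 1.13 ± 0.23 (adjusted p = 0.00919). Without both libraries that lay apart this interaction was 1.04 (limma adjusted p = 0.0594). Adcy7, an adenylyl cyclase prominent in blood cells, fell with tunicamycin alone (1.45-fold; adjusted p = 0.00369) and was lower in Tm_LPS than in LPS (1.45-fold; adjusted p = 0.00509), with means of 25.5, 25.6, 17.3 and 17.4 FPKM in the 4 groups.

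**Figure D4:**
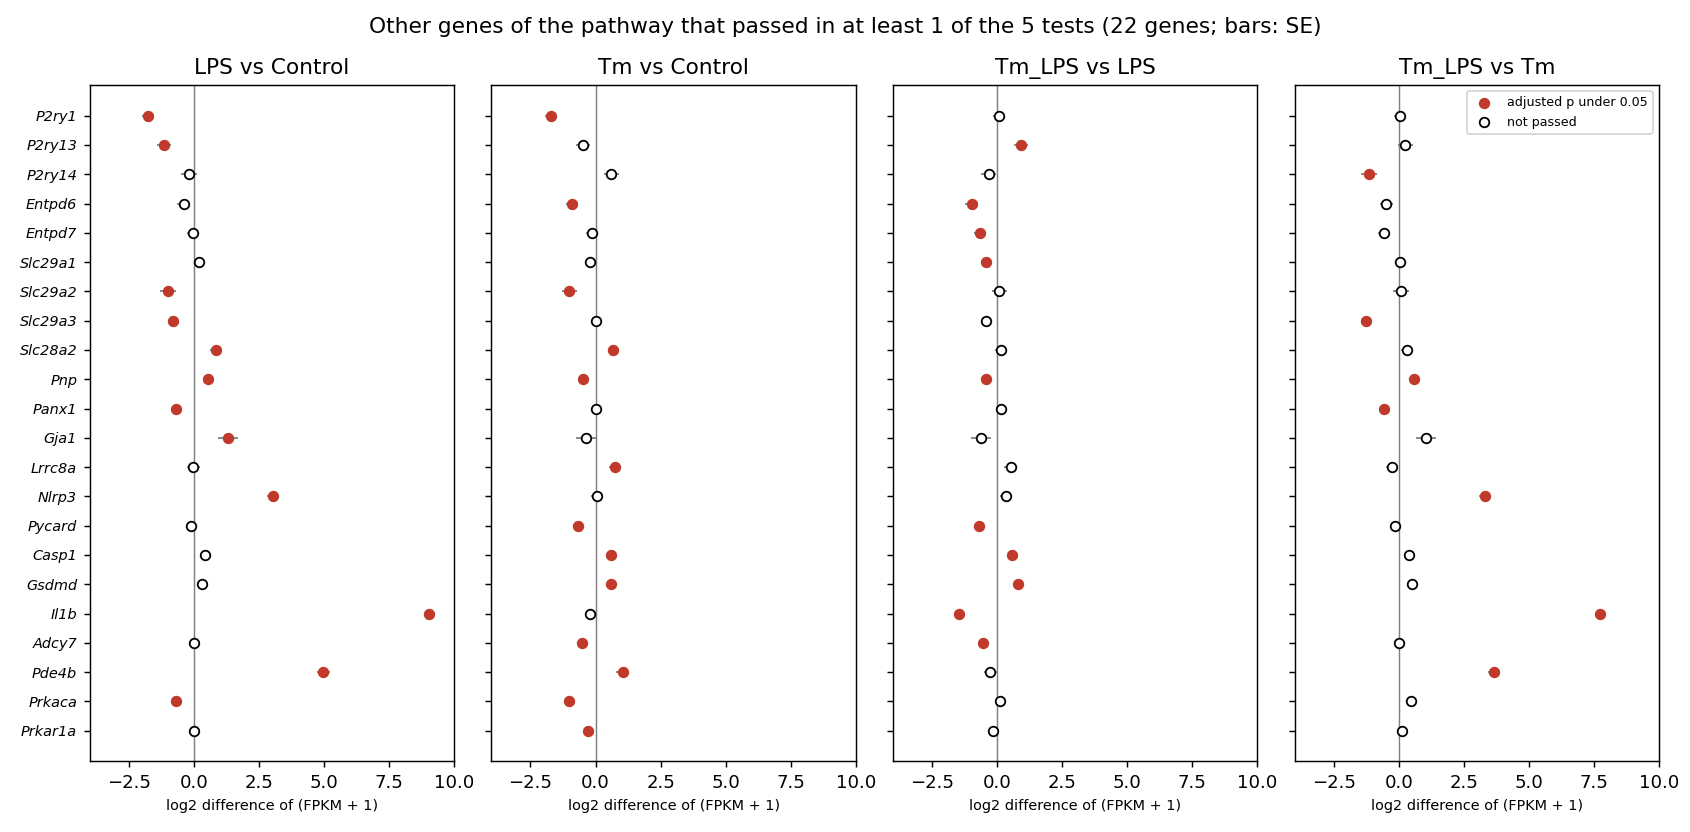
Log2 differences of FPKM + 1 (horizontal axis) for the 22 of 37 tested genes of the wider list that passed in at least 1 of the 5 tests, in 4 group comparisons (points; bars, SE of the limma fit; filled points, adjusted p under 0.05). The share of all tested genes that passed in at least 1 test was not computed, so nothing is read from this count. Il1b, Pde4b and Nlrp3 carry the strongest rises with LPS, and the other genes changed by less than 2 on this scale.

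To place each member among all genes, the likeness of patterns was measured as the root mean square difference of centred log2(FPKM + 1) over the 12 libraries, among 9839 genes. Nearest to P2rx4 were Oser1 (0.0822) and Psmc6 (0.0942), and to P2rx7 Rora (0.104) and Tanc2 (0.136). P2ry2 lay nearest to Cd44 (0.216), the hyaluronan receptor, and Ier5 (0.221). Cd44 was at means of 117, 215.1, 62.6 and 194 FPKM in Control, LPS, Tm and Tm_LPS, the order of rise with LPS and fall with tunicamycin alone seen for P2ry2. P2ry6 lay nearest to the potassium channel gene Kcnn4 (0.286) and to Glrx (0.298), both several times lower with tunicamycin alone: Kcnn4 had means of 277 FPKM in Control and 82.4 in Tm, and Glrx of 263.2 and 56.3. Adora2a lay nearest to Tfec (0.244) and Trex1 (0.266), Adora2b to Tnip3 (0.351) and Trim21 (0.439), and Entpd1 to the Rab GTPase genes Rab1b (0.0946) and Rab3d (0.113). Genes that vary little have small distances by construction, and all distances share the same 12 libraries.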

How the data were processed

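RNA of 12 macrophage libraries, 3 in each of 4 groups named by the labels, had been sequenced. The authors deposited FPKM values by gene symbol for each library. The tools named in the submitters' processing notes are Cufflinks 2.2.1, TopHat2 2.0.13 with Bowtie2 2.2.3, and SAMtools 0.1.19, on mm10; which annotation was used, and how libraries were scaled, is not given there. Median-of-ratios factors were 1.013 to 1.019. Depth is unknown: 6.52% to 19.0% of values under 0.3 FPKM lay within log2 0.02 of a common ratio, so reads were not recovered. Of 24346 symbols 23310 matched GENCODE M21, from which gene coordinates were taken; promoter sequences came from RefSeq (GRCm38.p6).

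log2(FPKM + 1) of the 10311 genes with at least 1 FPKM in at least 3 libraries was fitted with limma 3.58.1 (lmFit and eBayes with trend) in R 4.3.3 over all 12 libraries, with 5 contrasts and Benjamini-Hochberg adjustment over all tested genes. The script was tested on simulated data with known changes. Genes named are the 8 members, up to 3 passing genes per class and contrast of the wider list with the largest change, the 2 nearest genes per tested member, and Hspa5 and Tnf. The members and lists were chosen with earlier results of these data known. Alternatives were quantile and median-of-ratios scaling, a filter at 5 FPKM or none, a pseudocount of 0.1, a block for the replicate number, a fit of the contrast's own samples, limma with no trend or robust, each replicate left out in turn and, chosen after seeing the data, both libraries that lay apart left out.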

Additional observations from a re-analysis of the deposited data

Results flagged for a closer look

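For 6 genes the difference of Tm_LPS from Tm departed from that of LPS from Control by the interaction test (limma, Benjamini-Hochberg adjusted over all tested genes). They were 2 of the 7 tested members and 4 of the 37 tested genes of the wider list. Of all tested genes 1.41% passed in the positive direction and 1.96% in the negative. The interaction was 0.80 for P2ry2 (adjusted p = 0.0284), 1.14 for P2ry6 (0.0173), 1.80 for P2ry1 (0.0038) and 1.13 for Prkaca (0.00919). It was -1.27 for Il1b (0.00153) and -1.31 for Pde4b (0.0443). The Pde4b call was lost in 15 of 21 alternatives, with adjusted p up to 0.185. Without both libraries that lay apart the Pde4b interaction was -0.99 (0.0708). The P2ry2 call was lost in 9 of 21 alternatives, with adjusted p up to 0.129. Also lost were P2ry6 without a filter (0.068), Il1b at a pseudocount of 0.1 (0.266) and Prkaca without both libraries that lay apart (0.0594). In the P2ry1 case both agents alone brought the gene to about 1 FPKM, a mean of 1.08 with LPS and 1.12 with tunicamycin, and the combination left it at 1.20.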

How the results depend on the processing

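The number of members that passed stayed at 3 with LPS and 6 with tunicamycin alone in every alternative, and was 4 or 5 in Tm_LPS relative to LPS and relative to Tm. For the interaction it was 2, with 1 when no filter was used, 1 without both libraries that lay apart, 1 to 2 when single replicates were left out, and 3 without the trend term, where Adora2a passed as well. Beside this, 1457 to 1975 of all genes were called with LPS over the settings, and 2796 to 3725 with tunicamycin alone. For Tm_LPS relative to LPS it was 2305 to 3039 genes, relative to Tm 1064 to 1712, and for the interaction 212 to 353. Between 7624 and 15387 genes were tested, by setting. Of 767 alternative values for single members 742 kept direction and side of the threshold, 13 lost the call, 1 gained it and 11 changed sign. The sign changes, all of values that did not pass, were Adora2a with tunicamycin alone (-0.072 with quantile normalization, -0.0032 to 0.20 with single replicates left out, lowest without Tm replicate 3), P2ry2 in Tm_LPS relative to LPS (-0.015 without both libraries apart, -0.015 to 0.15 with single replicates left out, lowest without Tm_LPS replicate 3), P2rx4 in Tm_LPS relative to Tm (-0.13 with quantile normalization), Entpd1 in Tm_LPS relative to Tm (-0.050 without both libraries apart or Tm_LPS replicate 3, -0.065 to 0.058 with single replicates left out, lowest without Tm replicate 1) and the Adora2b interaction (0.28 at pseudocount 0.1, -0.46 to 0.065 with single replicates left out, above 0 without Tm replicate 2, 0.053, and Tm_LPS replicate 1, 0.065). The cause was not tested. For the wider list 872 of 935 values kept direction and side of the threshold and 63 lost the call. Genes called over the whole table fell from 1618 to 1064 in Tm_LPS relative to Tm without Tm replicate 2, and for the interaction from 347 to 229 without Tm replicate 3, to 237 without LPS replicate 2 and to 212 without both libraries apart. The replicate block gave the same call for all 78 values it was computed for, with 1858, 3552, 2993, 1628 and 348 genes called in the 5 contrasts against 1894, 3557, 2978, 1618 and 347. Same-numbered libraries deviated together by correlations of -0.0391 to 0.0945, none of 18 over 0.1, so the numbers were not taken as pairs. That 10 of 12 libraries correlated best with their own number is a hint from the data, not from the design. No value came from the filter at 5 FPKM for Entpd7, Lrrc8a, P2ry13, P2ry14 and Slc29a2, from a fit of the contrast's own samples for the interaction or for Adora2a in the Tm against Control comparison, or from any alternative but no filter for Nt5e. Depth is unknown, and Nt5e in all groups and Adora2a in Control and Tm are too low for a fold change.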
